A study of Homo sapiens with 96 samples.

Results

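Translation factors are the proteins that start and extend protein synthesis on the ribosome. The 61 genes described here were taken from the 19438 genes of the deposited tables as all symbols that begin with EIF or EEF, 65 in number, leaving out the 4 kinases EIF2AK1 to EIF2AK4. They comprised 15 symbols of the EIF3 family, 8 of EEF1 and EEF2, 10 of EIF2 and EIF2B, 11 of EIF4F and its partners, 8 of scanning and subunit joining, 3 of EIF5A and 6 brakes and accessory factors. The 23 EIF3, EEF1 and EEF2 symbols were set against the 38 other factors, because many mRNAs of that group are known as TOP mRNAs.

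All libraries came from U2-OS, an established human osteosarcoma cell line that here carried a luciferase reporter under the Per2 promoter. The clocks of the cells were synchronised with 0.1 µM dexamethasone, and plates were collected every 2 h at 12 times labelled CT00 to CT22, the first 24.5 h after dexamethasone. WT plates, without siRNA, were seeded with 2.25 M cells (M, 1000000). Knockdown cells received 120 pmol of a mixture of 5 siRNAs against Bmal1 (gene symbol ARNTL), a transcription factor of the clock, with Lipofectamine RNAiMAX, and were seeded at 0.56 M cells per plate. All cells were treated with 100 µg/mL cycloheximide, which stalls elongating ribosomes, before lysis. The plates gave total RNA (stranded total RNA kit) and ribosome footprints (RNA protected from RNase I and pelleted through sucrose), with 2 replicates at each time, so that 96 libraries formed 48 groups. The labels name no control siRNA, so siRNA, transfection, seeding density and plate series cannot be told apart in any difference between treatments. No label says whether the 2 replicates came from different cultures; a p-value here reflects library-to-library spread, which may be technical. A change in the number of cells and a change in RNA per cell cannot be told apart in such bulk libraries.

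Initiation begins when EIF2 delivers the initiator tRNA to the small ribosomal subunit and EIF4F loads the mRNA; EIF3 is the large scaffold that holds them together. EEF1 then brings aminoacyl-tRNAs to the elongating ribosome and EEF2 moves it along the mRNA. Messengers of ribosomal proteins and of many of these factors start with a C followed by a run of pyrimidines, the terminal oligopyrimidine or TOP motif, and their ribosome loading is known to depend on mTOR and the binding protein LARP1.

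The start of the mRNA is shown first because it is the feature that defines TOP mRNAs. Members were chosen by symbol, but the EIF3, EEF1 and EEF2 group was set apart for its known TOP mRNAs. Its share of pyrimidine starts is therefore not independent of that grouping. RefSeq promoters on GRCh38.p14 were matched to 49 of the 61 members. A start was counted as a pyrimidine start where the annotated first base was a C followed by at least 4 bases that were each C or T, on the gene's own strand. Such starts stood at 1429 of the 35116 promoters in the RefSeq table (4.07%). Counted by gene, 1404 of 27305 gene symbols (5.14%) had 1 or more such starts, and 12 of the 49 matched members (24.5%). Of the 23 EIF3, EEF1 and EEF2 symbols 13 were matched, and 7 of these 13 had such a start. Among the 36 matched other factors 5 had one. The windows run from 15 bases before the annotated start through the first 15 transcribed bases, 5′ to 3′, with the pyrimidine run in capitals.
EEF1A1 (chr6:73521018-73521047, minus strand): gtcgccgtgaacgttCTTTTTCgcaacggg
EEF2 (chr19:3985449-3985478, minus strand): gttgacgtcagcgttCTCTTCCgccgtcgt
EEF1B2 (chr2:206159880-206159909, plus strand): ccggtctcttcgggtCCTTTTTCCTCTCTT
EIF3D (chr22:36529152-36529181, minus strand): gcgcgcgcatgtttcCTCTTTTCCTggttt
EIF3F (chr11:7987322-7987351, plus strand): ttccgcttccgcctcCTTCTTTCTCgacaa
EIF3M (chr11:32583816-32583845, plus strand): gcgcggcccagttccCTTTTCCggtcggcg
EIF4B (chr12:53006441-53006470, plus strand): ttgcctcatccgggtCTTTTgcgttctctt
EEF1G (chr11:62573877-62573906, minus strand): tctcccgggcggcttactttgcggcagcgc
EIF3B (chr7:2354812-2354841, plus strand): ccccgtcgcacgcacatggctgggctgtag
EIF5A (chr17:7306984-7307013, plus strand): atgggtgggaacccgaccacactagcgcgc
The first 6 genes belong to the EIF3, EEF1 and EEF2 group and carry the run. EIF4B, the RNA-binding helper of the EIF4A helicase, carries the shortest run that was counted. EEF1G and EIF3B belong to the group but have no run at this annotated base, and EIF5A, shown at its first annotated start, stands for the other factors without it. EIF3K, EIF4A2, EIF2S3, EIF2A and EIF2D also had a pyrimidine start. A match is a description of these letters at an annotated base, and cap sites in U2-OS were not measured here.

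Depth and labels were checked first. Total RNA libraries held 13.6 to 20.1 M reads assigned to genes in 46 of 48 libraries, and 2.56 and 2.66 M reads in the knockdown replicate 2 libraries of CT18 and CT14. Footprint libraries held 2.50 to 5.82 M reads. ARNTL total RNA, the siRNA target, was 14.3 to 47.9 counts per 1000000 reads (CPM) in WT and 3.36 to 6.49 CPM in the knockdown, with no overlap. The 5 mesenchymal markers summed to 2971 to 3444 CPM in WT and 3406 to 4141 CPM in the knockdown, mostly VIM and SPARC. VIM averaged 1982 and 2403 CPM, SPARC 1035 and 1142 CPM and COL1A1 180 and 177 CPM. RUNX2 was lower in the knockdown (15.5 and 10.5 CPM), and COL1A2 was near 0 in both (0.099 and 0.145 CPM). The 4 epithelial markers summed to 7.35 to 23.7 CPM over all total RNA libraries. Among them CDH1 had a higher mean in the knockdown (1.64 and 3.88 CPM). EPCAM (3.93 and 2.01 CPM), KRT14 and CLDN4 had lower means there. Sums over 3 blood markers were 1.57 to 3.38 CPM in WT and 9.84 to 17.6 CPM in the knockdown; this was CD68 (means of 2.09 and 12.8 CPM), while PTPRC averaged 0.298 and 0.227 CPM and HBB was near 0 in both. Sums over 3 neuronal markers were 63.7 to 80.0 and 124.6 to 189.5 CPM, of which NEFL had 61.4 and 145.8 CPM on average, while SNAP25 (6.00 and 3.70 CPM) and RBFOX3 (3.97 and 2.55 CPM) had lower means in the knockdown. Their part in the treatment differences was not tested.

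Of the 61 members, 56 passed the filter on low counts in total RNA and 55 in footprints. EIF1AY, EIF3C, EIF3CL, EIF4E1B and EIF4EBP3 held between 0 and 22 reads over all 96 libraries, and EEF1DP3 passed in total RNA only. EIF3C and EIF3CL are near-identical copies, so their near-absence says nothing about the EIF3C subunit. EIF3IP1, EIF5AL1 and EEF1DP3 resemble other members in sequence and are uncertain for the same reason.

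EEF2, the translocase, and EEF1A1, the carrier of aminoacyl-tRNA, had the most total RNA of all members in WT. Over the 24 WT libraries of each assay EEF2 averaged 2965 CPM ± 489 (SD, n = 24) in total RNA and 2706 CPM ± 216 in footprints. EEF1A1 averaged 2947 CPM ± 405 in total RNA but 98.3 CPM ± 22.2 in footprints. The translational efficiency of a gene is given here as log2 footprint CPM minus log2 total RNA CPM of libraries with the same time and number. Footprints lie mostly on the coding part and total RNA covers the whole transcript, so levels of the ratio also depend on UTR length. Changes within a gene do not, provided that its transcript forms and the assignment of its reads stay the same, which was not tested. For EEF1A1 it averaged −4.92 ± 0.49 (SD, n = 24 pairs), and for EIF4B −4.56 ± 0.41. EEF1A1 lay at the 0.167 percentile and EIF4B at the 0.234 percentile of the 11957 genes kept in both assays. How reads that match several gene copies were counted is not given in the sources used here, so these low levels of EEF1A1 and EIF4B, and those of other genes with near-identical copies, are uncertain.

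The other members spread between these values and 2.52 ± 0.36 for EIF3IP1. Most EIF3 subunits lay above the middle of all genes. The median over the 13 EIF3 symbols kept was 0.40 in WT, against −0.10 over all genes. These 13 include EIF3IP1, whose reads are uncertain, at 2.52 on 35 to 75 total RNA reads per WT library. The others ran from −0.90 in EIF3L to 0.88 in EIF3H. The 7 EEF1 and EEF2 genes ran from EEF1A1 up to EEF1A2, the muscle and nerve form of EEF1A, at 1.52 ± 0.19. Among other factors EIF5B, which joins the large subunit, reached 2.07 ± 0.24, while EIF4E, the cap-binding protein, was at −1.74 ± 0.28. The 12 members with a pyrimidine start had a median of −0.81 in WT, and the 33 matched members without one had a median of 0.10. Cytosolic ribosomal proteins, the reference TOP family, were at −1.69 over 68 genes in WT.

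Across the WT day, total RNA of several EEF and EIF3 genes rose while their footprints fell, and the translational efficiency of 4 of them fell; in the knockdown no factor passed the same test. The change was measured as the mean of CT18, CT20 and CT22 minus the mean of CT00, CT02 and CT04, with 6 late and 6 early libraries per treatment and assay. It was tested with limma-trend on log2(CPM + 0.25), Benjamini-Hochberg adjusted over all genes tested, with an adjusted p of 0.05 as the threshold. In WT translational efficiency 29 of 11785 genes fell (0.246%) and 1 rose (0.00849%). EIF3L, EEF1G, EIF3E and EIF3H were among those 29, and no other factor passed the test. None of these 4 had a pyrimidine start shown above. EEF1G had no run, and the others were not matched to a promoter. The count of 4 members rose to 7 with the deposited scaling (0.407% of all genes passed), to 11 without replicate 1 (0.763%) and to 8 without replicate 2 (0.771%), the last with 7 lower and 1 higher.

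EEF1G, the scaffold subunit of the EEF1 exchange complex, had 1001 to 1208 CPM of total RNA in the early WT libraries (median 1086) and 1207 to 1341 CPM in the late ones (median 1265). Its footprints were 181.6 to 278.4 CPM early (median 245.5) and 173.7 to 204.5 CPM late (median 192.7). Total RNA touched at the edge of the 2 windows and footprints overlapped through CT02 of replicate 1. Its efficiency fell by 0.54 ± 0.09 (SE, log2; limma adjusted p = 0.00487), to 0.690 times its early value.

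EIF3H, a subunit at the edge of the EIF3 complex, went the same way. Its total RNA was 299.1 to 340.2 CPM early and 363.0 to 397.1 CPM late, without overlap, while its footprints overlapped (626.9 to 792.1 and 578.2 to 668.6 CPM). Its efficiency, which did not overlap, was 0.92 to 1.36 in the 6 early WT pairs and 0.57 to 0.84 in the 6 late ones. The fall was 0.43 ± 0.07 (limma adjusted p = 0.00487). EIF3L had efficiencies of −0.93 to −0.35 early and −1.33 to −0.93 late, where CT02 of replicate 1 and CT20 of replicate 2 met at −0.93; the change was −0.56 ± 0.10 (adjusted p = 0.00749). EIF3E, which binds next to EIF3D, had −0.11 to 0.34 early and −0.49 to −0.10 late, and changed by −0.48 ± 0.11 (adjusted p = 0.0472). Without the low-count filter EIF3E had an adjusted p of 0.0740, and with windows of 4 times 0.0552. EIF3L had an adjusted p of 0.0508 when limma was fitted to ratios of libraries with the same time and number. That fit held no replicate term.

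EEF2 and EEF1A1 had larger changes that missed the threshold when both replicates were fitted together. EEF2 total RNA in WT replicate 1 went from 2727 CPM at CT00 to 3646 CPM at CT22, and in replicate 2 from 2068 to 3211 CPM. Its footprints went from 2828 to 2538 CPM and from 3199 to 2646 CPM. Its efficiency therefore ran from 0.05 to −0.52 in replicate 1 and from 0.63 to −0.28 in replicate 2, starting higher and ending higher in replicate 2. The change was −0.59 ± 0.14 (limma adjusted p = 0.0620). Within replicate 2 alone it was −0.74 (adjusted p = 3.86e-09) and within replicate 1 alone −0.45 (adjusted p = 0.0106), from fits that pooled neighbouring times. EEF1A1 changed by −0.83 ± 0.19 (adjusted p = 0.0579), with −0.83 within each replicate alone. EIF4B, outside the group but with a pyrimidine start, changed by −0.63 ± 0.17 (adjusted p = 0.161).

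**Figure D1:**
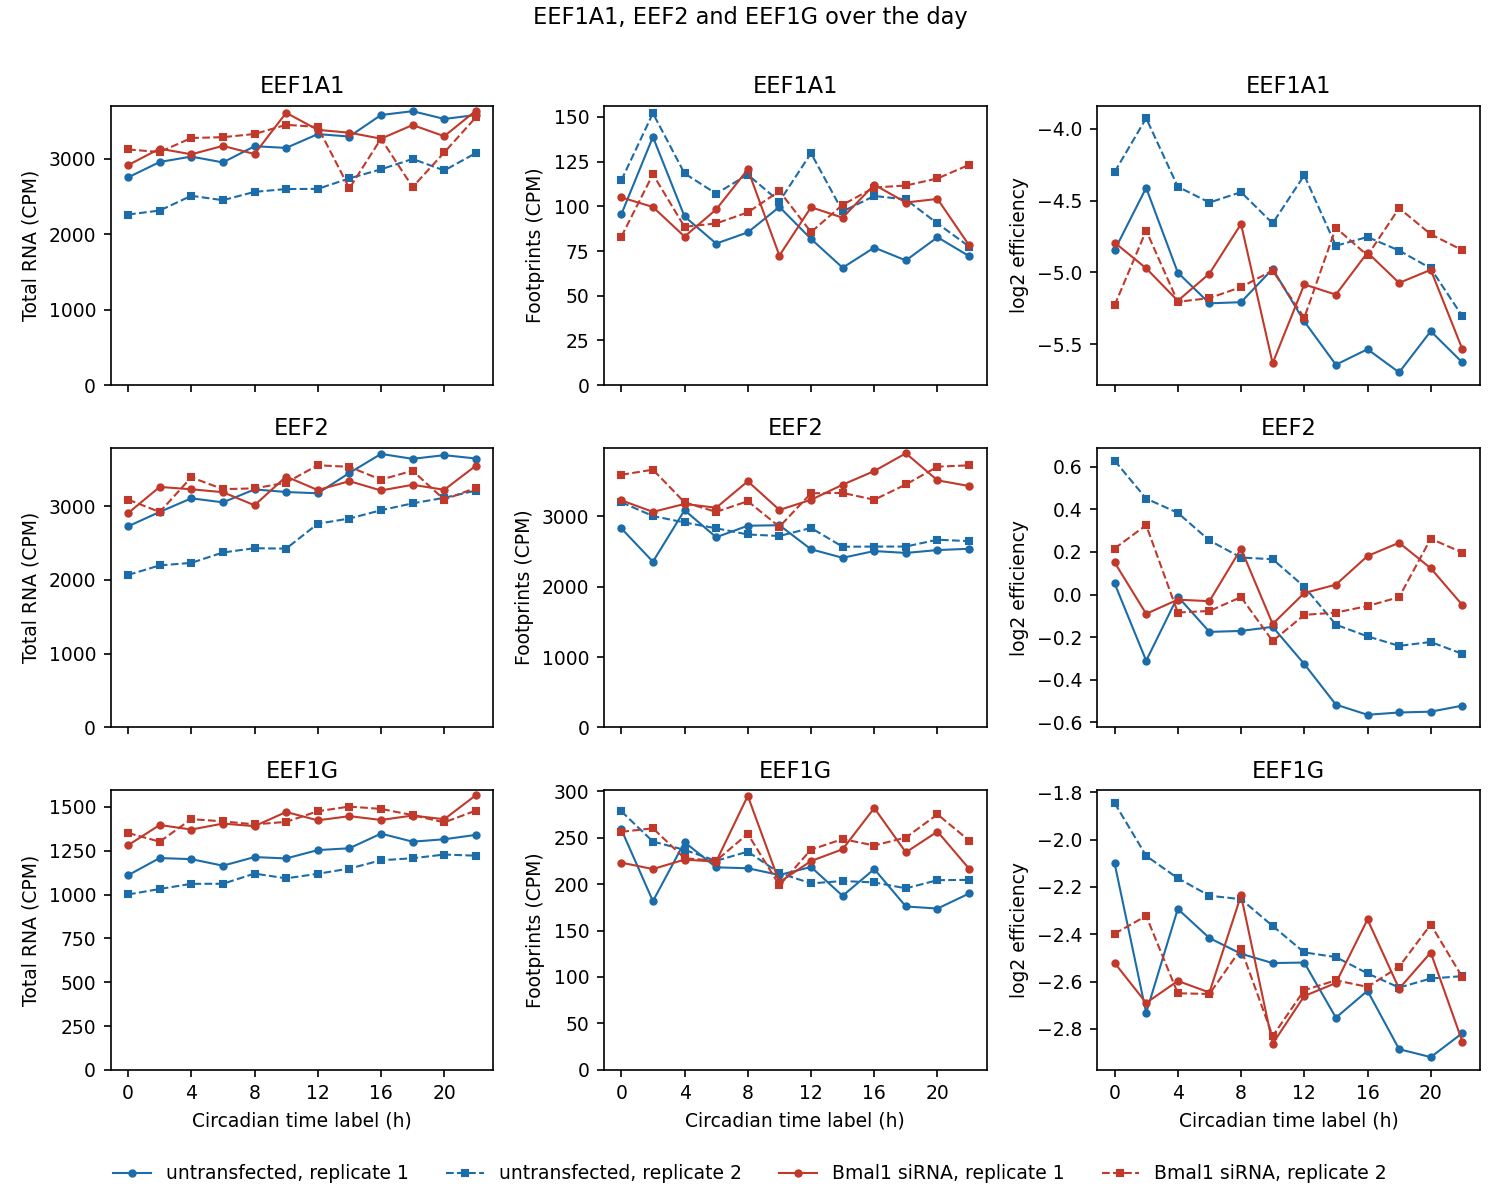
Total RNA (CPM), footprints (CPM) and log2 efficiency of EEF1A1, EEF2 and EEF1G against the circadian time label, 1 line per treatment and replicate (blue, WT without siRNA; red, Bmal1 siRNA; solid, replicate 1; dashed, replicate 2). In WT, EEF2 efficiency falls from 0.05 to −0.52 in replicate 1 and from 0.63 to −0.28 in replicate 2, while the red lines stay between −0.22 and 0.33.

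All 6 late WT efficiencies lay below all 6 early ones in EIF3D, EIF3H and EIF3M, as in 0.351% of genes. After seeing the data the 2 replicates were also read separately, since WT total RNA libraries of 1 replicate number deviated together (a correlation over 0.1) in 66 of 66 pairs of times, and WT footprint libraries in 58 of 66. In 13 of the 55 members all 3 late WT efficiencies lay below all 3 early ones within replicate 1 and again within replicate 2; this held for 121 of 11957 genes (1.01%). Of the 13, 10 were EEF1A1, EEF1A2, EEF1D, EEF1G, EEF2, EIF3D, EIF3E, EIF3H, EIF3L and EIF3M. The other 3 were EIF4B, EIF2D and EIF2S3, the GTP-binding subunit of EIF2. A pyrimidine start stood in 7 of the 13. EEF1G had none, and EEF1A2, EEF1D, EIF3E, EIF3H and EIF3L were not matched to a promoter. Ribosomal proteins made up 36 of the 121 genes. No member met the opposite condition, which 127 genes (1.06%) met. In the knockdown 47 genes (0.393%) were lower in this way and 36 (0.301%) higher, with no member among them.

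Group medians are given as a description, beside those of all genes. The 20 EIF3, EEF1 and EEF2 genes tested had a median efficiency change of −0.29 in WT and 18 of them were below 0. The 35 other factors had a median of −0.02, with 18 below 0, and all genes 0.03. Changes among other factors ran from −0.63 in EIF4B to 0.39 in EIF5A, the hypusinated elongation factor (0.39 ± 0.10, adjusted p = 0.145). Members with a pyrimidine start had a median of −0.28 over 12 genes, 11 of them below 0; matched members without one had a median of −0.01 over 33 genes. Within the EIF3 family itself EIF3B, the central scaffold, changed by 0.04 ± 0.08 and EIF3I by −0.05 ± 0.09. Of the 68 ribosomal proteins tested 15 fell, with a median of −0.41. Of the 35 other genes of the translation pathway tested none passed, with a median of −0.04.

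**Figure D2:**
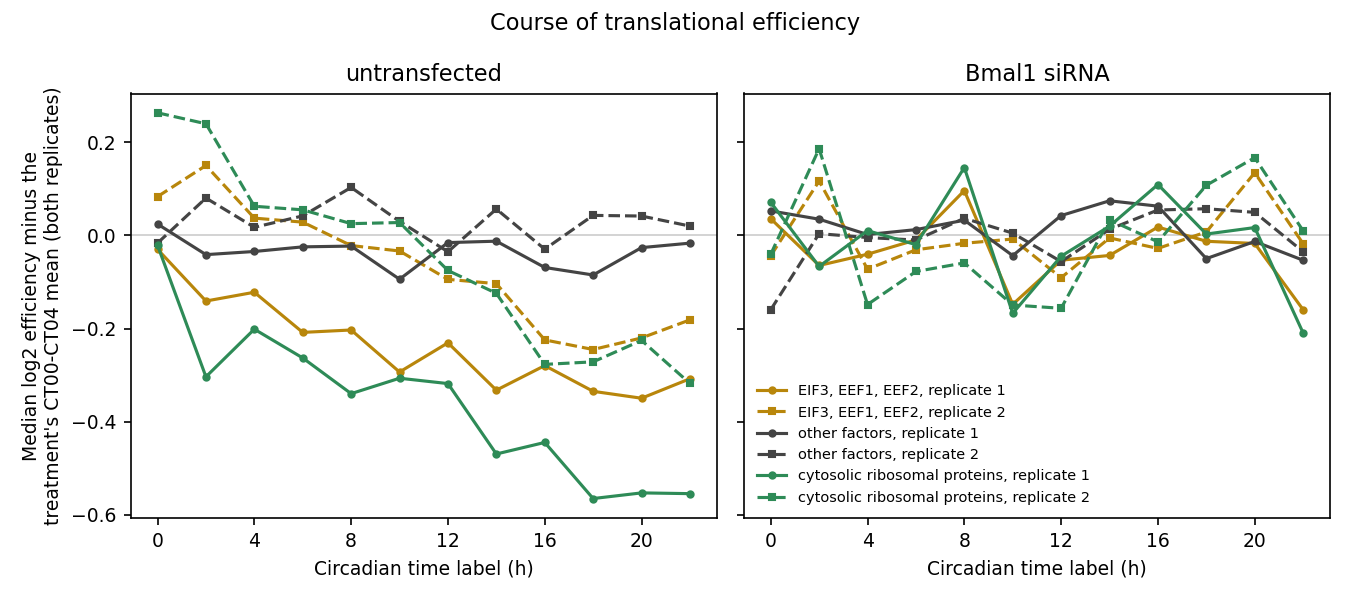
Median log2 efficiency of 3 gene lists minus each gene's mean over CT00 to CT04 of that treatment, against the circadian time label, in WT (left) and knockdown (right), 1 line per list and replicate. In WT the EIF3, EEF1 and EEF2 lines and the ribosomal protein lines descend through the day in both replicates, the former to −0.31 and −0.18 at CT22, and the other factors stay between −0.09 and 0.10; in the knockdown no list descends steadily.

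In the knockdown the same contrast gave 2 genes of 11618 (0.0172%), both higher and neither a member; 559 genes had an unadjusted p of at most 0.05, and edgeR called 5. The median change was −0.01 over the EIF3, EEF1 and EEF2 genes, 0.01 over other factors and 0.01 over ribosomal proteins. EEF2 changed by 0.05 ± 0.06, EEF1G by −0.04 ± 0.06, EIF3H by −0.07 ± 0.05 and EEF1A1 by 0.06 ± 0.14. EIF3H efficiency, for example, was 0.68 to 0.94 in the early knockdown pairs and 0.56 to 0.88 in the late ones, the windows overlapping almost fully. For EEF1A1 the 2 knockdown replicates went opposite ways. Its efficiency was −5.20 to −4.79 early and −5.53 to −4.98 late in replicate 1. In replicate 2 it was −5.23 to −4.71 early and −4.85 to −4.55 late, where −4.55 came from the shallow CT18 library.

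The difference between the treatments was tested as its own contrast, late minus early in the knockdown minus the same in WT. None of 11957 genes passed (0%); 552 had an unadjusted p of at most 0.05, and edgeR's quasi-likelihood test also called 0. The estimates for EEF1G (0.49 ± 0.11, adjusted p = 0.142), EIF3L (0.48 ± 0.12, 0.176), EEF2 (0.64 ± 0.16, 0.176) and EIF3H (0.35 ± 0.09, 0.200) were positive but missed the threshold. The median was 0.27 over the EIF3, EEF1 and EEF2 genes, 19 of 20 above 0, and −0.03 over the other factors. It was 0.30 over the members with a pyrimidine start, with 12 of 12 above 0, and 0.45 over ribosomal proteins. These medians and signs are a description only. Genes of a list were measured in the same libraries and are not replicates of a treatment. Without replicate 1, 4 members passed, EEF2 among them (0.73, adjusted p = 6.10e-05), of 25 genes in all (0.207%), and without replicate 2 no gene did. With windows of 4 times 3 members passed, of 11 genes (0.092%). A different course in the 2 treatments was thus not established by the test of all libraries.

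**Figure D3:**
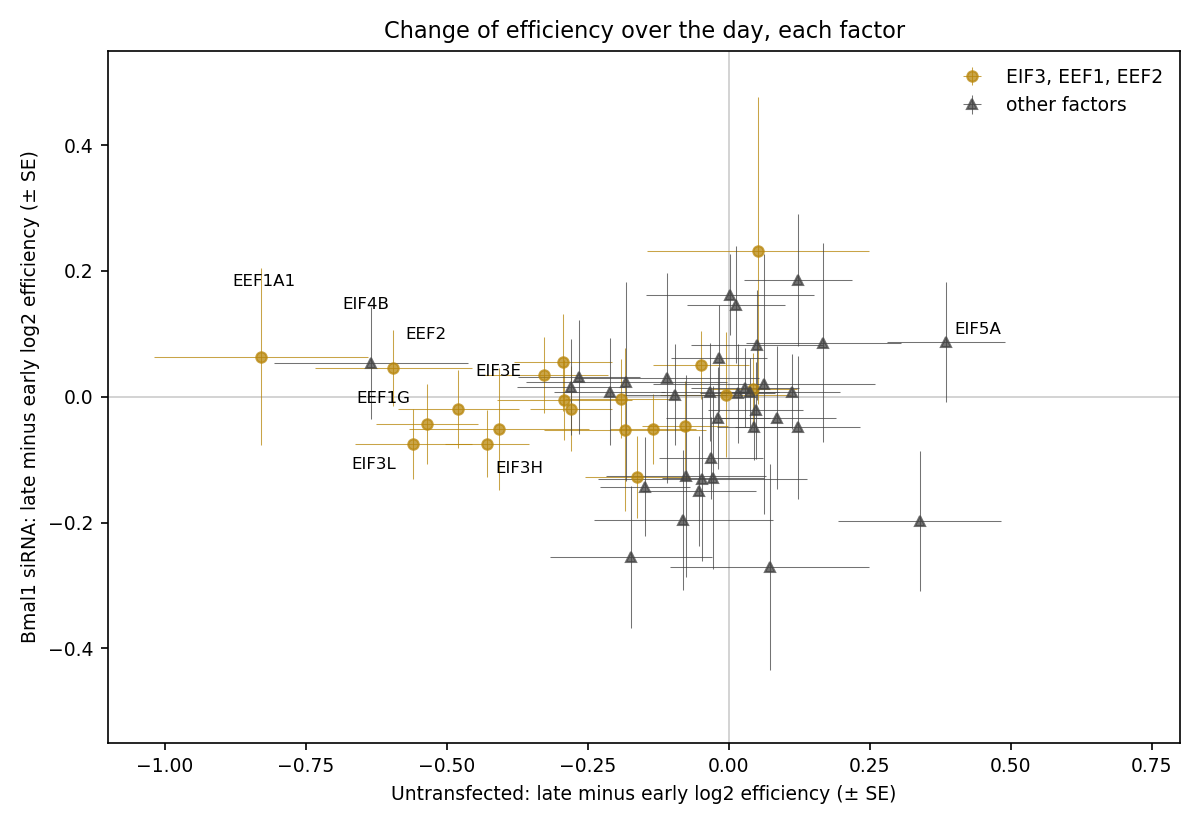
Late minus early log2 efficiency of each tested factor in WT (horizontal axis) and in the knockdown (vertical axis), with standard errors; circles are EIF3, EEF1 and EEF2 genes and triangles other factors. Most circles lie left of 0, down to −0.83 for EEF1A1, while on the vertical axis they centre on −0.01.

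The 2 assays behind the ratio moved apart in WT. In total RNA 7 of 21 EIF3, EEF1 and EEF2 genes rose and 3 fell, against 14.6% and 18.3% of all genes, and 4 of 35 other factors rose and 16 fell. EEF2 rose by 0.43 ± 0.13 (adjusted p = 0.0174), EEF1A2 by 0.35, EIF3L by 0.33, EEF1A1 by 0.32 and EIF4B by 0.31. EIF2B3, a subunit of the guanine nucleotide exchange factor of EIF2, changed by −0.36 ± 0.05 (adjusted p = 2.83e-05), from 67.2 to 82.1 CPM early to 54.9 to 60.7 CPM late, without overlap. EIF5A2, EIF1AX and EEF1E1 changed by −0.30, −0.29 and −0.29. In the joining and scanning class 5 of 7 fell and none rose, with EIF5, EIF6, EIF1, EIF1AX and EIF1AD passing.

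In WT footprints 11 of 20 EIF3, EEF1 and EEF2 genes fell and none rose, where 7.06% of all genes fell and 9.22% rose. EEF1A1 footprints were 94.3 to 152.1 CPM early and 69.7 to 103.8 CPM late, and changed by −0.51 ± 0.14 (adjusted p = 0.0165). EEF1B2, the exchange subunit, changed by −0.44, EEF1G by −0.33 and EEF2 by −0.17 ± 0.06 (adjusted p = 0.0495; 0.0575 with edgeR, 0.0624 without the filter and 0.178 without replicate 2). Of 35 other factors 9 fell, EIF2B3 and the EIF5A-like copy EIF5AL1 by the most (−0.39 and −0.44), and 1 rose. That one was EIF4G3, a paralogue of the EIF4G scaffold, at 46.9 to 60.3 CPM early and 65.0 to 74.0 CPM late (0.41 ± 0.08, adjusted p = 0.000976).

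In the knockdown total RNA 5 EIF3, EEF1 and EEF2 genes rose and 3 fell, against 15% and 16.4% of all genes, and in footprints 3 rose and 1 fell, against 11.4% and 12.8%. Among other factors 2 rose and 8 fell in total RNA, and 2 rose and 7 fell in footprints. EIF2B3 fell here as well, by 0.29 ± 0.05 in total RNA (adjusted p = 8.41e-05) and by 0.29 ± 0.06 in footprints (adjusted p = 0.000418), and EIF4G3 footprints rose by 0.41 ± 0.07 (adjusted p = 2.12e-05). EEF2 footprints rose by 0.13 ± 0.04 (adjusted p = 0.0251; 0.0512 with the deposited scaling and 0.0621 without the filter). Without replicate 1 the knockdown counts dropped from 18 to 1 member in total RNA (9.46% of all genes passed) and from 13 to 0 in footprints (7.21%). These were fits of the remaining library of each time, with neighbouring times pooled. In total RNA the remaining replicate 2 holds both shallow libraries, CT14 and the late time CT18. Their part in the drop was not tested.

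A cosine of 24 h was fitted as well. It described 18 of 56 members in WT total RNA (21.6% of all genes), 6 in the EIF3, EEF1 and EEF2 group and 12 others. EIF5A2, the second EIF5A isoform, had the largest amplitude (0.26 ± 0.03 on the log2 scale, peak at CT7.8, adjusted p = 1.87e-05), a 1.44-fold range from trough to peak. Its total RNA ran from 20.8 to 35.2 CPM over the 24 WT libraries. EEF2 had an amplitude of 0.20 with its peak at CT16.9, EIF2B3 0.15 at CT3.4 and EIF4G3 0.14 at CT17.3. In WT footprints 5 members passed (6.45% of all genes): EIF4G3 (0.22, peak CT17.3), EIF2S3, EIF3B, EIF3I and EIF3L. In the knockdown 16 members passed in total RNA (31.4% of all genes) and 8 in footprints (16.8%), with EIF2B3 and EIF4G3 footprints at CT2.9 and CT16.4. Of these knockdown members 5 and 3 belonged to the EIF3, EEF1 and EEF2 group.

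A single day of sampling cannot tell a wave from a drift. With a linear drift in the model 1 of the 18 WT total RNA members remained (0.176% of all genes passed) and none of the others did (0.0591% in WT footprints, 4.12% and 2.2% in knockdown total RNA and footprints). With the replicate number as a block, which marks a series in WT total RNA, 30 members passed in WT total RNA (36.8% of all genes) and 14 in WT footprints (11.5%). Without replicate 2 no member passed in WT footprints (1.12% of all genes), and without replicate 1 only 2 passed in knockdown total RNA (8.15%) and 1 in knockdown footprints (3.94%). The knockdown total RNA fit without replicate 1 rested on the replicate that holds both shallow libraries.

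Averaged over the 12 times, knockdown and WT differed in most genes, and the factors shared in this. In total RNA 80.5% of 14027 genes passed, and 45 of 56 members did. Of 21 EIF3, EEF1 and EEF2 genes 15 were higher in the knockdown and 3 lower, against 41.2% and 39.3% of all genes; of 35 other factors 16 were higher and 11 lower. Medians were 0.13, 0.04 and, over all genes, 0.01. Because WT total RNA libraries of 1 replicate number were related, the means of the 12 libraries of each replicate were also compared, 2 against 2; in the knockdown this held for 10 of 66 pairs of times in total RNA and 4 of 66 in footprints. With these series means 27 members passed in total RNA (57.4% of all genes), 31 in footprints (57.9%) and 3 in efficiency (1.56%).

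Among EIF3 subunits EIF3H, EIF3K and EIF3M had no overlap in total RNA between the 24 WT and 24 knockdown libraries. EIF3H total RNA was 299.1 to 397.1 CPM in WT and 417.5 to 490.6 CPM in the knockdown (0.33 ± 0.02, adjusted p = 7.06e-17). EIF3K was 217.2 to 252.0 against 287.5 to 321.9 CPM. Non-overlap with the knockdown higher was seen in 10.6% of genes. EIF3I had the largest rise of the subunits, 0.38 ± 0.03, and EIF3J and EIF3A, the loosely bound subunit and the largest one, were lower (−0.22 ± 0.03 and −0.13 ± 0.02).

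The values of EEF2, EEF1A1 and EIF4B depended on the replicate. EEF2 total RNA was higher by 0.16 ± 0.05 (adjusted p = 0.00509), EEF1A1 by 0.14 ± 0.05 and EIF4B by 0.12 ± 0.03. Without replicate 2 these were −0.021 (adjusted p = 0.534), 0.017 (0.528) and 0.0097 (0.703), and none passed with series means. EEF2 total RNA was 2727 to 3708 CPM in WT replicate 1 and 2068 to 3211 CPM in WT replicate 2, against 2906 to 3555 CPM in the knockdown.

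Among initiation factors outside EIF3, 4 of the 5 subunits of EIF2B, which recharges EIF2, were higher in total RNA. Of all genes tested 41.2% were higher. EIF2B1 differed by −0.024 ± 0.018 (limma adjusted p = 0.210). EIF2B2 rose from 43.0 to 50.0 CPM in WT to 58.9 to 70.3 CPM (0.42 ± 0.02, adjusted p = 1.79e-18), and EIF2B3, EIF2B4 and EIF2B5 rose by 0.24, 0.34 and 0.24. EIF2S1, the subunit phosphorylated under stress, was lower (−0.32 ± 0.02). EIF6, which keeps the large subunit from joining early, was 209.5 to 276.8 CPM in WT and 270.3 to 367.4 CPM in the knockdown (0.48 ± 0.02). EIF5A2 was 20.8 to 35.2 CPM against 35.9 to 56.2 CPM, a 1.55-fold difference (0.63 ± 0.04, adjusted p = 3.66e-17).

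EIF4E2, a cap-binding homologue that represses translation, was the member with the largest fall in total RNA. Its total RNA was 95.3 to 111.6 CPM in WT and 64.1 to 78.9 CPM in the knockdown, and its footprints 71.8 to 106.9 against 50.8 to 66.7 CPM, without overlap in either assay. Both fell by 0.53 on the log2 scale (± 0.02 and ± 0.04), so that its efficiency differed by 0.00 ± 0.04. Non-overlap with the knockdown lower was seen in 10.8% of genes in total RNA and 5.32% in footprints. In footprints EIF2B2, EIF4G1 and EIF6 were higher without overlap, which 5.94% of genes were. EIF4EBP2, a brake that sequesters EIF4E, was higher in total RNA (0.41 ± 0.04).

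In footprints 74.3% of 12007 genes passed and 44 of 55 members did. Of the EIF3, EEF1 and EEF2 genes 12 were higher and 3 lower, against 36.6% and 37.7% of all genes, and of other factors 14 were higher and 15 lower. EEF2K, the kinase that inhibits EEF2, had the largest difference of any member. Its footprints were 10.7 to 26.2 CPM in WT (median 15.5) and 5.14 to 10.5 CPM in the knockdown (median 7.79), which did not overlap. They were 0.492 times the WT level (−1.02 ± 0.08, adjusted p = 7.24e-16), on 16 to 119 reads per library. EIF5A2 was higher by 0.64 ± 0.07 and EIF2B5 by 0.43 ± 0.03, while EIF1AX, a scanning factor, was lower (−0.31 ± 0.07) and reached −0.14 (adjusted p = 0.218) without replicate 2.

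**Figure D4:**
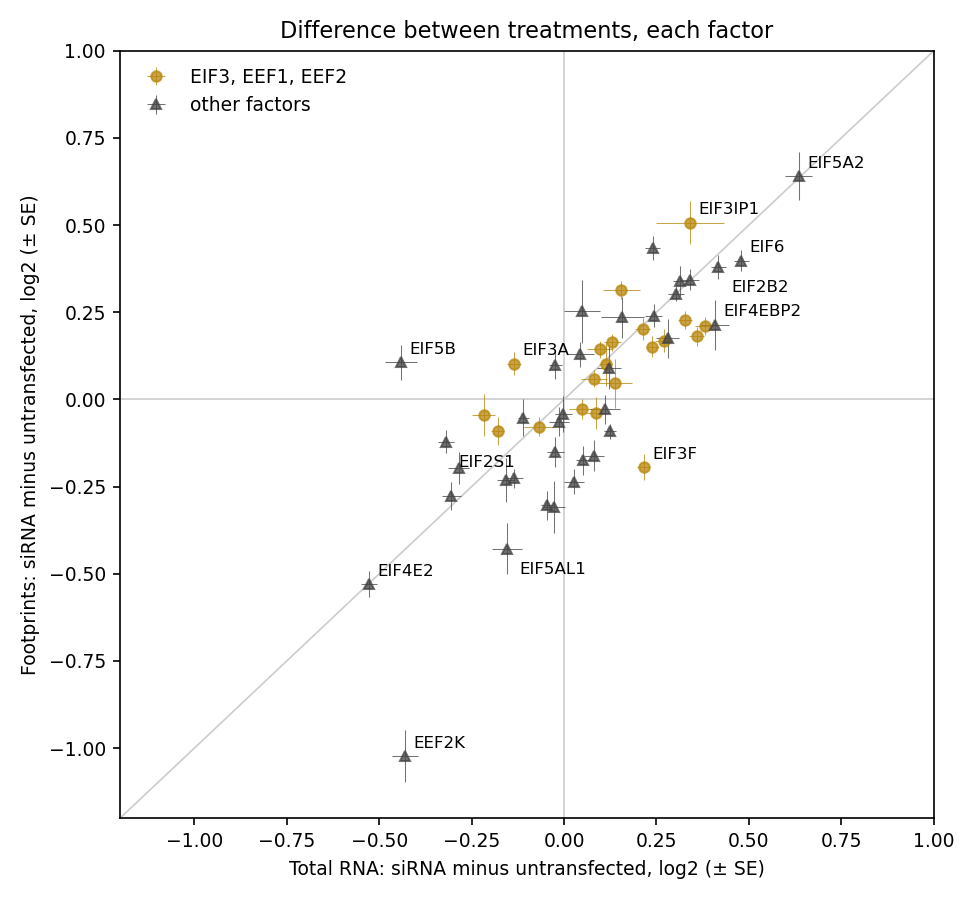
Knockdown minus WT log2 difference of each tested factor in total RNA (horizontal axis) and footprints (vertical axis), with standard errors; points on the diagonal have equal differences in both assays. EIF5B and EIF3A lie above the diagonal, and EEF2K, at −0.43 and −1.02, and EIF3F lie below it.

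Translational efficiency differed between treatments in 29.5% of 11957 genes and in 19 of 55 members. In the EIF3, EEF1 and EEF2 group 2 were higher and 5 lower, and among other factors 4 were higher and 8 lower, against 12.4% and 17.1% of all genes. With the deposited scaling 26 members passed (39.3% of all genes), 19 higher and 7 lower, 13 of them among the 19 called before, and 79.8% of the genes called were higher, where it was 42.0%. Under it the all-gene median was 0.09, against −0.01 otherwise. EIF5B, EEF2K and EIF3F kept their direction and their call under every alternative run.

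EIF5B had less total RNA in the knockdown (53.8 to 97.7 CPM against 75.8 to 119.4 CPM; −0.44 ± 0.04) while its footprints did not pass the test (325.7 to 504.4 CPM against 314.9 to 555.2 CPM; 0.11 ± 0.05, adjusted p = 0.0511). Its efficiency was 1.46 times that of WT (0.55 ± 0.07, adjusted p = 3.61e-09). EEF2K moved the other way, with a lower efficiency (−0.59 ± 0.08, adjusted p = 3.47e-08) on top of less RNA (−0.43 ± 0.03). EIF3F, a subunit with a pyrimidine start, had more RNA (0.22 ± 0.02) and fewer footprints (−0.19 ± 0.04), and its efficiency was lower (−0.41 ± 0.04, adjusted p = 6.85e-12). EIF3A and EIF2S1 were higher by 0.24 ± 0.04 and 0.20 ± 0.04, and lost their call with series means. EEF2 efficiency was higher by 0.16 ± 0.06 (adjusted p = 0.0262), but −0.054 (adjusted p = 0.628) without replicate 1. Ribosomal proteins had 4 higher and 35 lower of 68, with a median of −0.16.

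Of the 36 other pathway genes, 17 were higher and 15 lower in total RNA, 14 and 14 in footprints, and 5 and 4 in efficiency. These were 88.9%, 77.8% and 25% of the list, against 80.5%, 74.3% and 29.5% of all genes, so the shares were similar. The single genes named next were picked from this list and do not stand for it. PDCD4, which blocks the helicase EIF4A, was lower in total RNA (−1.30 ± 0.07), as was EIF2AK2, a double-stranded RNA sensor that phosphorylates EIF2 (−1.08 ± 0.03). PPP1R15A, which directs a phosphatase to EIF2, was higher by 0.46 ± 0.04 in total RNA and by 1.25 ± 0.11 in footprints. PABPC4, a poly(A)-binding protein, was higher in total RNA (0.54 ± 0.02) and lower in efficiency (−0.79 ± 0.04). In WT late minus early, RPTOR, the mTOR partner, changed by −0.50 ± 0.05 in total RNA and PDCD4 by 0.61 ± 0.18.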

How the data were processed

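Ribosome footprints and total RNA of U2-OS cells were deposited as 8 tables, 1 per treatment, assay and replicate, each with 12 times. Per the submitters' processing notes the tools were STAR 2.3.0e, HTSeq 0.5.4p1 and DESeq2 on GRCh37 (hg19); the strand setting is not given in the sources used here. The deposited values are a signal, gene counts divided by a size factor, and dividing each column by its smallest step gave whole reads for 100% of values (within 0.001 read). These reads were scaled within each assay by TMM, filtered with filterByExpr (minimum count 10) and tested with limma 3.58.1 (trend, robust) on log2(CPM + 0.25) in R 4.3.3. A fold on that scale understates the change of low genes. Efficiency was tested as an interaction of assay and contrast in 1 model. p-values were Benjamini-Hochberg adjusted over all genes tested. edgeR 4.0.16 (quasi-likelihood, on the recovered reads) and DESeq2 1.42.0 were alternatives. Scripts were tested on simulated data.

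Replicates of 1 group differed by 1.40 to 10.8 times counting noise (chi-square per degree of freedom over genes, 48 pairs), so none was counted as a repeat of the same library. The replicate number marks a series in WT total RNA: the difference between replicates correlated over 0.1 for 66 of 66 pairs of times (0.37 to 0.65), against 58 of 66 in WT footprints, 10 of 66 in knockdown total RNA and 4 of 66 in knockdown footprints. In WT, total RNA and footprints of the same time correlated over 0.1 at 12 of 12 times. In the knockdown they did so at 7 of 12 times. Between WT and knockdown the correlation was over 0.1 at 1 of 12 times in total RNA and 3 of 12 in footprints. The main efficiency model did not pair total RNA with footprints.

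All members may be named by the rule. Per-library values were given for EEF1A1, EEF2, EIF4B and the 4 largest rises and 4 largest falls among called members of each comparison (mean log2 CPM of at least 1), where the text turns on them, and other members by single values. The members, gene lists and comparisons were chosen with earlier results of these data known. Promoter sequences came from RefSeq (GRCh38.p14), which differs from the build of the counts and was used for sequence only. EIF3E, EIF3H, EIF3CL, EEF1D, EIF3IP1, EIF3A, EIF3G, EIF4EBP1, EIF2S2, EEF1DP3, EIF3L and EEF1A2 were not matched.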

Additional observations from a re-analysis of the deposited data

How the results depend on the processing

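Alternatives were another scaling (median ratio, or the deposited size factors), no low-count filter, a pseudocount of 1, edgeR or DESeq2, each replicate left out, the replicate block, the 2 shallow libraries left out, a linear drift, windows of 4 times, and series means. Without a replicate, late and early were compared with neighbouring times pooled and treatments with a shared time course, so the lone library is assumed to vary like the others. Counts of members past the threshold moved by over 1.5 times as follows. Series means took the treatment difference from 45 to 27 members in total RNA and from 19 to 3 in efficiency. The drift term took rhythms from 18 to 1 (WT total RNA) and from 5, 16 and 8 to 0 (WT footprints, knockdown total RNA and knockdown footprints). The replicate block, with the number paired in WT total RNA, took WT rhythms from 18 to 30 and from 5 to 14. It changed no other count of members by that much. For efficiency this run held no replicate term and fitted ratios of libraries with the same time and number. Late WT efficiency stayed at 4 members in that paired fit, 3 of them shared. A replicate term was not fitted for efficiency, so its effect there was not tested. The deposited scaling took WT footprint rhythms to 9, late WT efficiency from 4 to 7 and its difference between treatments from 0 to 1, and it split the treatment difference in footprints into 30 higher and 10 lower (26 and 18 before) and late WT footprints into 1 higher and 25 lower (1 and 20). No filter took knockdown footprint rhythms to 5. Windows of 4 times took the difference between treatments to 3. With 1 replicate left out, WT footprint rhythms ranged from 0 to 4, knockdown total RNA rhythms from 2 to 4, knockdown footprint rhythms from 1 to 4, late WT efficiency from 8 to 11, late knockdown total RNA from 1 to 11, late knockdown footprints from 0 to 11, and the difference between treatments from 0 to 4; WT total RNA rhythms from 14 to 19 and other counts stayed within 1.5 times. The treatment difference of EEF2 turned from 0.16 to −0.021 in total RNA without replicate 2 (0.33 without replicate 1) and from 0.16 to −0.054 in efficiency without replicate 1 (0.37 without replicate 2); the cause was not tested. Of the alternatives for single named genes, 913 kept direction and side of the threshold, 103 lost the call, 30 gained one and 2 reversed. Footprint depth limits low members: EEF2K rested on as few as 16 reads and EIF1AX on 24.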
